A study of Mus musculus with 16 samples.

Results

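Levels are described here for 9 genes of the TALE homeobox class (Meis1, Meis2, Meis3, Pbx2, Pbx3, Pknox1, Pknox2, Tgif1 and Tgif2), in atria and ventricles of mouse hearts at E15.5 of embryonic development. The 9 were chosen by name as Meis, Pbx, Pknox and Tgif genes. All 9 are among the 13950 of 16118 genes in the deposited table with a mean of at least 1 CPM (the gene's reads scaled by 1 factor per library). The study took an atrium and a ventricle from each of 8 embryos, 4 controls and 4 labelled as double knockouts of Meis1 and Meis2 (dKO), which gave 16 polyA RNA-seq libraries in 4 groups of 4. All embryos carried Meis1flox/flox and Meis2flox/flox alleles, so the controls (aMHC +/+) hold the same floxed alleles. The dKO embryos were aMHC tg/wt, that is, they carried a Cre transgene under the alpha-myosin heavy chain promoter of cardiomyocytes. Cells of a whole chamber other than cardiomyocytes, such as fibroblasts and endothelial cells, were therefore in the libraries and are not targets of this Cre. The series design names a constitutive or inducible deletion and does not say which was used in these embryos.

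TALE proteins are transcription factors whose homeodomain carries a 3-amino-acid loop extension between its first and second helix. Meis and Pknox (also called Prep) proteins bind DNA in complexes with Pbx proteins, and Pbx and Meis serve as partners of Hox proteins. Tgif proteins act mostly as repressors and bind Smad proteins of the transforming growth factor beta (TGF-beta) pathway. In the heart, Meis1 is known for its part in the cell cycle arrest of cardiomyocytes, and Meis2 and the Pbx genes for roles in the development of the heart and its outflow tract.

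The homeobox is shown for the 6 genes with a called difference in any comparison, because it is the stretch that makes them one class. Each is 189 coding bases, 5′ to 3′ on the gene's strand, from GENCODE M21 transcripts on GRCm38. Capitals mark the proline-tyrosine-proline codons of the loop (alanine-tyrosine-proline in Tgif1), and do not show which residues are the extension.
Meis1: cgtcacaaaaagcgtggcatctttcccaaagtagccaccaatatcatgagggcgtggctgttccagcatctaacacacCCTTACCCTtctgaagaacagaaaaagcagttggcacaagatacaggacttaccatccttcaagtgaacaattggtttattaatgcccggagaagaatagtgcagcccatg
Meis2: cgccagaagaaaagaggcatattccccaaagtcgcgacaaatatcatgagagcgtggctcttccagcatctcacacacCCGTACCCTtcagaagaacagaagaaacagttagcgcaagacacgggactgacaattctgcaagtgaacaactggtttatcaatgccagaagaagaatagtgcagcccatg
Meis3: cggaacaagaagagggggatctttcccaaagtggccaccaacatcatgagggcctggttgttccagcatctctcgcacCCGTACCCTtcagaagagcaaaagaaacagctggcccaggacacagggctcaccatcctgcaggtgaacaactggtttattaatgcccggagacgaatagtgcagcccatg
Pbx3: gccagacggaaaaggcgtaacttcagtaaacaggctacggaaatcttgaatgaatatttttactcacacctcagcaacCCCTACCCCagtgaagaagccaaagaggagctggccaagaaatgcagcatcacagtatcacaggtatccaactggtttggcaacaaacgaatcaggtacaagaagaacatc
Pknox2: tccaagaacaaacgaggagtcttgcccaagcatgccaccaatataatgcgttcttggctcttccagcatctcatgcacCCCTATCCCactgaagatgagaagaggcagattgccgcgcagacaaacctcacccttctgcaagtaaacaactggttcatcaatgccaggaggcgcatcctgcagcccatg
Tgif1: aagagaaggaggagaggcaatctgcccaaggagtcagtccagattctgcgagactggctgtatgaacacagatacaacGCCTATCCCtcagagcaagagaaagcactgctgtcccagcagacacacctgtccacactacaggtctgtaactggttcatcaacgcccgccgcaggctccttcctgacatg

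These coding stretches lie in 3 exons in the Meis, Pbx and Pknox genes and in 2 exons in the Tgif genes. Meis1 and Meis2 share 84.1% of the 189 bases, Meis1 and Meis3 share 84.7%, and Meis1 and Pbx3 share 48.7%. Over all annotated transcripts, no pair of the 9 genes shares a run of 60 bases, the length of the reads. The longest shared run is 32 bases for Meis1 and Meis2, and 42 bases for Meis2 and Pknox2. The position of the floxed exons is not given in the sources used here. A count over the whole gene also takes reads from exons outside a deletion, so the values below measure each gene's transcript level and do not check the deletion itself. The term dKO is used as the labels give it.

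On GRCm38, Meis1 (ENSMUSG00000020160) lies on the minus strand of chromosome 11, 18879817 to 19018985. Meis2 (ENSMUSG00000027210) lies on the minus strand of chromosome 2, 115863064 to 116065839, and Pbx3 (ENSMUSG00000038718) on the same strand of that chromosome, 34171457 to 34373142. Tgif2 (ENSMUSG00000062175) is on the plus strand of chromosome 2, 156840007 to 156855570. Meis3 (ENSMUSG00000041420) is on the plus strand of chromosome 7, 16175090 to 16186504, and Pknox2 (ENSMUSG00000035934) on the minus strand of chromosome 9, 36890982 to 37147407. Chromosome 17 holds Pknox1 (ENSMUSG00000006705, plus strand, 31564734 to 31607693), Pbx2 (ENSMUSG00000034673, plus strand, 34591266 to 34597400) and Tgif1 (ENSMUSG00000047407, minus strand, 70844205 to 70853546). An exon of Pbx2 overlaps one of Gpsm3 on the same strand and an exon of Tgif2 overlaps one of 5430405H02Rik on the opposite strand, so the counts of these 2 members are uncertain.

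The libraries held 7.88 to 23.0 megareads counted to genes, and all 4 dKO ventricle libraries (12.3 ± 3.0 megareads, SD, n = 4) were shallower than every control ventricle library (18.4 ± 3.18 megareads). The members had between 44 reads (Meis3 and Pknox2, in a dKO ventricle library) and 1981 reads (Pbx2). Atrial and ventricular myocyte markers matched the chamber labels: their summed level was 10082 to 14156 CPM in atria against 1776 to 4750 CPM in ventricles for 6 atrial markers, and 227 to 1450 CPM in atria against 15807 to 19896 CPM in ventricles for 5 ventricular markers. Of the 53 markers of 10 cell types, 0 were at or under 3 reads in every library. In atria, the summed level of 6 cardiomyocyte markers was 17696 to 20333 CPM in controls and 14585 to 16403 CPM in dKO, and that of 5 smooth muscle and pericyte markers was 489 to 585 and 854 to 1073 CPM. The 5 epicardial markers summed to 263 to 329 CPM in control and 339 to 407 CPM in dKO atria, also with no overlap. The 6 atrial myocyte markers summed to 10082 to 11938 CPM in control and 12890 to 14156 CPM in dKO atria, with 2 called higher (Nppa, Sln) and 1 lower (Mybphl). Nppa, the atrial natriuretic peptide gene, made up most of that difference (3827 ± 594 and 5920 ± 704 CPM, SD, n = 4), Mybphl was 130 ± 15.0 and 91.2 ± 6.31 CPM, and the list's median log2 difference was 0.055. The counts called in dKO atria were 1 of 6 cardiomyocyte markers (lower), 4 of 5 smooth muscle and pericyte markers (higher) and 1 of 5 epicardial markers (higher). All marker counts in atria stand beside 7.47% of all genes called there. Myh6, which was not called, made up most of the cardiomyocyte difference (11611 ± 921 and 9594 ± 681 CPM). Acta2, which was called, made up most of the smooth muscle and pericyte difference (446 ± 43.4 and 838 ± 104 CPM). The median log2 difference was -0.26 for the cardiomyocyte list and 0.86 for the smooth muscle and pericyte list. Fibroblast markers overlapped in their sum (4106 to 5462 and 4679 to 7769 CPM), but 2 of 6 were called higher (Dcn and Tcf21) and their median was 0.42. Dcn was 161 to 202 CPM in control and 222 to 304 CPM in dKO atria. In ventricles, the 6 atrial myocyte markers summed to 1776 to 2281 CPM in controls and 4026 to 4750 CPM in dKO, and the 5 ventricular myocyte markers to 17897 to 19896 and 15807 to 17098 CPM. Nppa again made up most of the former (744 ± 182 and 2722 ± 264 CPM), with 2 of 6 called (Nppa and Myl4, higher) and a list median of 0.080. Of the ventricular markers 1 of 5 was called (Irx4, lower), with a list median of -0.24. These counts in ventricles stand beside 2% of all genes called there. Myh7, which was not called, had the largest CPM difference of the list (14168 ± 685 and 12307 ± 500 CPM). Myl2 (3903 ± 375 and 3158 ± 247 CPM), Hey2 (158 ± 9.36 and 134 ± 9.18 CPM) and Mb (680 ± 70.3 and 579 ± 69.8 CPM) also had lower dKO means and were not called. The summed levels of the remaining marker lists overlapped between genotypes in each chamber. Among these lists the only marker called was Kdr, 1 of 5 endothelial markers, lower in dKO atria. It was 131 to 141 CPM in control and 108 to 122 CPM in dKO atria, and the endothelial list's median there was 0.054. In whole chambers, fewer cells of a type and less RNA per cell cannot be told apart.

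Meis1 and Meis2 differed between control and dKO hearts in different chambers. Meis1 was lower in dKO atria and showed no called difference in ventricles, and Meis2 was lower in dKO ventricles and showed no called difference in atria. None of the other 7 members was called between control and dKO in either chamber. Differences are on the log2(CPM + 1) scale, from limma over all 13950 genes with Benjamini-Hochberg adjustment, called at an adjusted p under 0.05.

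The Meis1 level in atria was 39.1, 37.9, 40.7 and 43.9 CPM in control embryos 1 to 4 and 25.8, 25.0, 22.9 and 30.5 CPM in dKO embryos 1 to 4. Every dKO atrium was below every control atrium. The log2 difference was -0.62 (SE 0.087, 95% interval -0.81 to -0.43, limma adjusted p = 0.00135), and the dKO mean was 64.5% of the control mean. Among the 4 embryos that share a title number, 2 of each genotype, the difference was -0.66 (adjusted p = 0.00215). The other title numbers hold at most 1 dKO embryo each, too few for a value of their own. The markers called in the same atria, given above (among them smooth muscle, fibroblast and cardiomyocyte markers), differed with genotype too, and their part in the Meis1 difference was not tested. In ventricles Meis1 was 45.6, 41.5, 36.2 and 42.8 CPM in control and 43.4, 41.9, 40.4 and 37.8 CPM in dKO embryos. All 4 dKO values lie within the control range, and the log2 difference was -0.019 (95% interval -0.18 to 0.14, adjusted p = 0.950).

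For Meis2 the levels in ventricles were 39.9, 35.4, 37.9 and 43.6 CPM in control embryos 1 to 4 and 26.9, 20.5, 21.7 and 24.3 CPM in dKO embryos 1 to 4. The highest dKO ventricle was below the lowest control ventricle. The log2 difference was -0.73 (SE 0.090, 95% interval -0.92 to -0.53, limma adjusted p = 0.0011), with a dKO mean at 59.6% of control. It was -0.80 among the 4 embryos of the shared title number (adjusted p = 0.00963). Depth, the atrial marker sum (mostly Nppa) and the ventricular marker sum also separated these 2 groups of ventricles, and their part in the Meis2 difference was not tested. Atrial Meis2 was 22.8, 27.8, 25.4 and 25.5 CPM in control and 25.3, 25.1, 26.5 and 29.2 CPM in dKO embryos, with overlapping groups. Its log2 difference there was 0.063 (95% interval -0.11 to 0.24, adjusted p = 0.726).

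**Figure D1:**
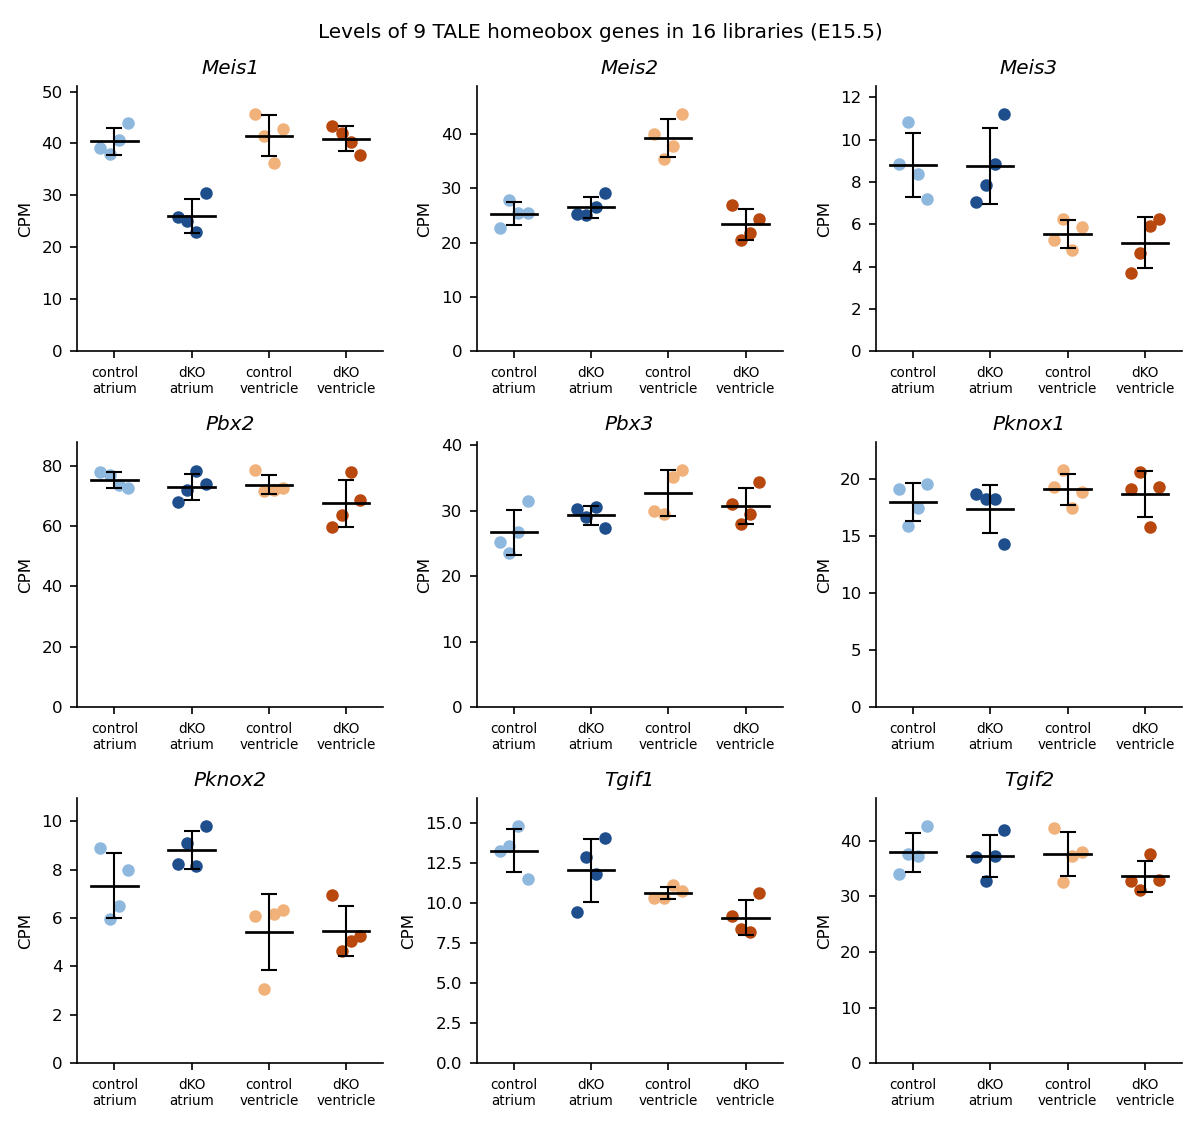
Level of each of the 9 TALE genes in CPM (linear axis from 0) in every library, with 4 points per group ordered by embryo number, the mean as a horizontal line and the SD as a bar. Meis1 stands lower in dKO atria (26.1 ± 3.19 against 40.4 ± 2.61 CPM) and Meis2 in dKO ventricles (23.4 ± 2.85 against 39.2 ± 3.46 CPM). No difference between dKO and control was called in the other 7 panels, beside 7.47% of all genes called in atria and 2% in ventricles.

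The difference between chambers was itself tested in a fit of all 16 libraries with the embryo as a block. The dKO effect in ventricles minus that in atria was 0.60 for Meis1 (SE 0.11, 95% interval 0.36 to 0.84, limma adjusted p = 0.00464) and -0.79 for Meis2 (SE 0.12, interval -1.04 to -0.54, adjusted p = 0.000573). No other member was called in this comparison. Of all genes tested, 2.64% were called in it, against 2 of the 9 members, which are the targets of the deletion.

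The ratio of Meis2 to Meis1 within a library does not depend on the scaling of that library. It was 0.582, 0.733, 0.624 and 0.581 in control atria 1 to 4 and 0.977, 1.003, 1.16 and 0.959 in dKO atria 1 to 4. Each dKO atrium had a ratio above each control atrium, with geometric means of 1.02 and 0.627. In ventricles the order was the other way: 0.876, 0.854, 1.05 and 1.02 in controls and 0.620, 0.489, 0.538 and 0.643 in dKO, with geometric means of 0.945 and 0.569. The dKO ratio was 1.63-fold the control ratio in atria (log2 0.70, SE 0.10) and 0.602-fold in ventricles (log2 -0.73, SE 0.12). Each difference had a two-sided exact permutation p of 0.0286 over 70 arrangements, the smallest that 4 against 4 allows (0.0286 after adjustment over 3 ratio tests). These tests use the same Meis1 and Meis2 values as the fits above.

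Within embryos, the log2 ratio rose from atrium to ventricle by 0.59, 0.22, 0.75 and 0.81 in control embryos 1 to 4. The same log2 difference was -0.66, -1.04, -1.11 and -0.58 in dKO embryos 1 to 4. The sign was thus opposite in all 4 embryos of each genotype, and the mean chamber difference in dKO minus that in controls was -1.44 (log2 scale, SE 0.19, exact permutation p = 0.0286, the smallest possible). The ratio is of CPM and is not corrected for length, so a ratio of 1 does not mean equal numbers of transcripts.

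**Figure D2:**
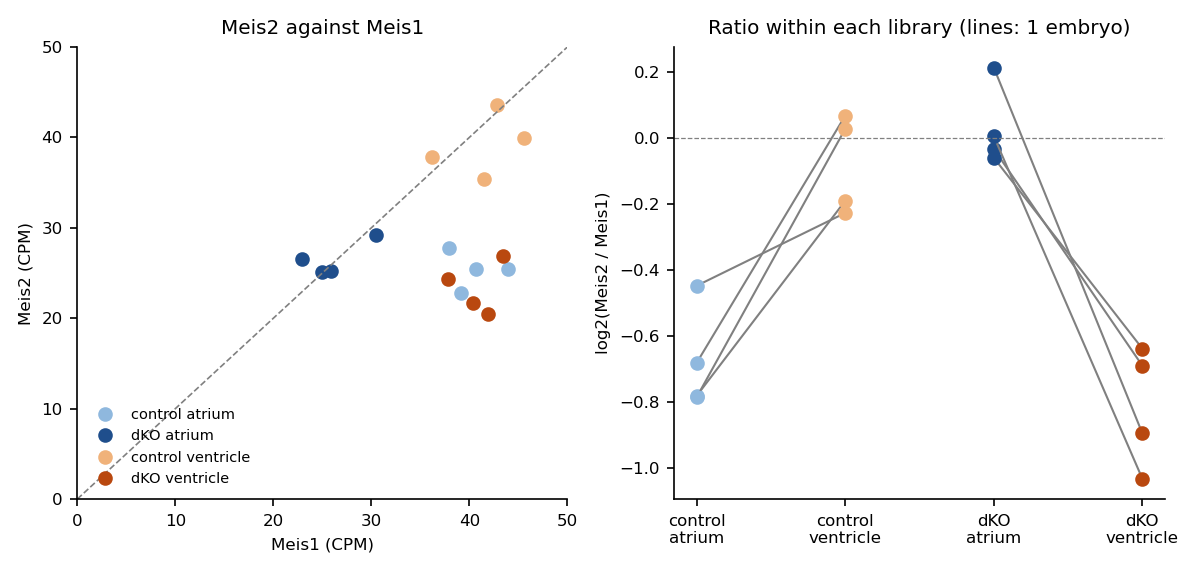
Left, Meis2 against Meis1 in CPM, 1 point per library coloured by group, with a dashed line where both CPM values are equal. Right, log2 of the Meis2 to Meis1 ratio per library, with a line joining the atrium and ventricle of 1 embryo: the 4 control lines go up (0.22 to 0.81) and the 4 dKO lines go down.

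Meis3, the third Meis gene, did not differ between genotypes beyond its spread in either chamber. In atria it was 8.83, 10.8, 8.37 and 7.20 CPM in control and 7.04, 7.88, 8.87 and 11.2 CPM in dKO embryos (log2 -0.014, 95% interval -0.34 to 0.32). In ventricles it was 5.25, 6.23, 4.79 and 5.87 CPM in control and 3.69, 4.62, 5.93 and 6.27 CPM in dKO embryos (log2 -0.11, interval -0.45 to 0.23). The intervals are wide, and differences within them are not excluded.

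The Pbx genes encode the partners that Meis and Pknox proteins bind. Pbx2, the member with the most reads, measured 75.2 ± 2.70 CPM in control atria, 73.0 ± 4.25 in dKO atria, 73.6 ± 3.20 in control ventricles and 67.5 ± 7.87 in dKO ventricles (SD, n = 4). Its log2 difference between dKO and control was -0.044 in atria (95% interval -0.17 to 0.081) and -0.13 in ventricles (-0.29 to 0.028, limma adjusted p = 0.506). Pbx3 was 25.1, 23.5, 26.7 and 31.4 CPM in control and 30.2, 28.98, 30.5 and 27.4 CPM in dKO atria (log2 0.13, interval -0.059 to 0.33, adjusted p = 0.447). In ventricles Pbx3 differed by -0.086 (interval -0.27 to 0.099), and its groups overlapped in both chambers.

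Pknox1 and Pknox2 encode the Prep proteins, which share Pbx partners with Meis proteins. Pknox1 stayed between 14.3 and 20.8 CPM over the 16 libraries and differed between dKO and control by -0.051 in atria (95% interval -0.28 to 0.17) and -0.032 in ventricles (-0.23 to 0.17). Pknox2 was 8.91, 5.98, 6.49 and 8.004 CPM in control and 8.24, 9.09, 8.15 and 9.79 CPM in dKO atria. The groups overlapped, and the log2 difference of 0.25 was not called (interval -0.037 to 0.53, limma adjusted p = 0.325). In ventricles the Pknox2 difference was 0.039, with the widest interval of the 9 members there (-0.38 to 0.46).

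Tgif1 and Tgif2 encode proteins that act mostly as repressors. Tgif1 in ventricles was 10.3, 10.3, 11.1 and 10.8 CPM in control and 9.20, 8.36, 8.19 and 10.6 CPM in dKO embryos. Only dKO embryo 4 lay within the control range, and the log2 difference of -0.21 was not called (95% interval -0.44 to 0.017, limma adjusted p = 0.440). In atria Tgif1 differed by -0.14 (interval -0.41 to 0.13). Tgif2 differed by -0.024 in atria (-0.22 to 0.17) and by -0.15 in ventricles (-0.33 to 0.027), with means between 33.6 and 37.9 CPM in the 4 groups.

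Counted together, 1 of the 9 members was called between dKO and control in atria, where 7.47% of all genes tested were called (563 higher and 479 lower in dKO). In ventricles 1 of 9 was also called, where 2% of all genes were (138 higher and 141 lower). The median log2 difference of the 9 members was -0.024 in atria and -0.11 in ventricles, beside -0.0046 and -0.018 over all genes. Both called members are the targets of the deletion.

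**Figure D3:**
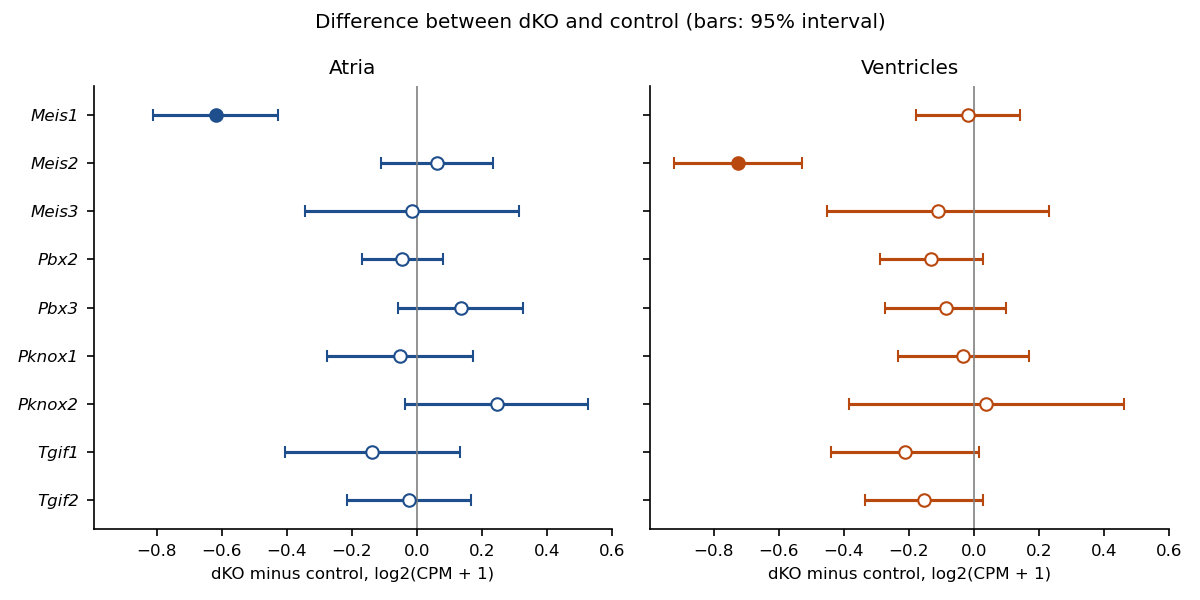
Difference between dKO and control on the log2(CPM + 1) scale for the 9 genes, in atria (left) and ventricles (right), with the 95% interval as a bar and a filled point where the adjusted p is under 0.05. The filled points are Meis1 in atria (-0.62) and Meis2 in ventricles (-0.73), and all other intervals include 0.

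The comparison of chambers within a genotype used both chambers of the same embryos. In control embryos Meis2 and Pbx3 were higher in ventricles, and Meis3, Pknox2 and Tgif1 were higher in atria. These 5 of 9 called members stand beside 46.9% of all genes called in the same comparison. In dKO embryos Meis1 was higher in ventricles, and Meis3, Pknox2 and Tgif1 were again higher in atria, 4 of 9 beside 49.1% of all genes. The members' shares were near those of all genes.

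Control ventricles exceeded control atria in Meis2 by a log2 difference of 0.61 (SE 0.083, 95% interval 0.43 to 0.78, limma adjusted p = 8.2e-06), with a ventricular mean of 39.2 ± 3.46 CPM and an atrial mean of 25.4 ± 2.05 CPM (SD, n = 4). All 4 control embryos had more Meis2 in the ventricle, by 0.78, 0.34, 0.56 and 0.75. In dKO embryos the difference was -0.18 (interval -0.35 to -0.0054, adjusted p = 0.0825) and 1 of 4 embryos had the higher value in the ventricle. Without dKO embryo 1, that 1 embryo, it was -0.27 and called (adjusted p = 0.0190).

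Meis1 in control embryos was 40.4 ± 2.61 CPM in atria and 41.5 ± 3.96 CPM in ventricles (log2 0.035, 95% interval -0.13 to 0.20), higher in the ventricle in 2 of 4 embryos. In dKO embryos it was higher in the ventricle in 4 of 4, by 0.73, 0.72, 0.79 and 0.30, with a fitted difference of 0.64 (SE 0.080, limma adjusted p = 2.7e-06). The 2 paralogues thus held opposite patterns: Meis2 differed between the chambers of controls, and Meis1 between those of dKO hearts.

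Meis3 was lower in the ventricle in all 8 embryos, by 0.65, 0.71, 0.70 and 0.25 in controls and 0.78, 0.66, 0.51 and 0.74 in dKO. The fitted log2 difference was -0.58 in control (SE 0.14, limma adjusted p = 0.00295) and -0.67 in dKO embryos (SE 0.14, adjusted p = 0.000797). The libraries of the 2 chambers did not overlap in either genotype.

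Pbx3 was higher in the ventricle in 4 of 4 control embryos, by 0.20 to 0.38 (fitted log2 0.28, SE 0.083, limma adjusted p = 0.00904). In dKO embryos it was higher in 2 of 4 (log2 0.063, 95% interval -0.11 to 0.24, adjusted p = 0.566). The difference between these chamber differences was -0.22 (interval -0.47 to 0.026, adjusted p = 0.454), so the genotypes were not shown to differ. Without control embryo 3 the control difference was 0.25 and no longer called (adjusted p = 0.0582).

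Tgif1 was lower in the ventricle in all 8 embryos. Its means were 13.3 ± 1.35 CPM in control atria and 10.6 ± 0.395 CPM in control ventricles (log2 -0.29, limma adjusted p = 0.0300), and 12.05 ± 1.97 and 9.09 ± 1.10 CPM in dKO (log2 -0.36, adjusted p = 0.00772). The control call was lost with quantile normalization (-0.26, adjusted p = 0.0578) and without control embryo 1, 2 or 3 (-0.28 to -0.26, adjusted p 0.103 to 0.114), and the dKO call without dKO embryo 2 (-0.30, adjusted p = 0.0555).

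Pknox2 was also lower in the ventricle in all 8 embryos. The fitted difference was -0.40 in control (SE 0.16, limma adjusted p = 0.0484) and -0.61 in dKO embryos (SE 0.16, adjusted p = 0.00432). The control call rests on a narrow margin: it held in 9 of 19 alternatives, and was lost with no replicate block (adjusted p = 0.068) and without control embryo 1, 2 or 4 or dKO embryo 3 or 4. Control ventricle 2, at 3.08 CPM beside 6.09 to 6.35 CPM in the other 3 control ventricles, was the lowest of the group, and without that embryo the difference was -0.28 (adjusted p = 0.117).

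Pbx2, Pknox1 and Tgif2 were not called between chambers in either genotype. Their control differences were -0.031 (95% interval -0.16 to 0.10), 0.081 (-0.12 to 0.28) and -0.014 (-0.19 to 0.16), and their dKO differences -0.12, 0.10 and -0.14. Pbx2 in dKO was called with edgeR on recovered reads (-0.14, adjusted p = 0.0349), with quantile normalization (-0.17, adjusted p = 0.0302) and without dKO embryo 3 (-0.15, adjusted p = 0.0426).

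**Figure D4:**
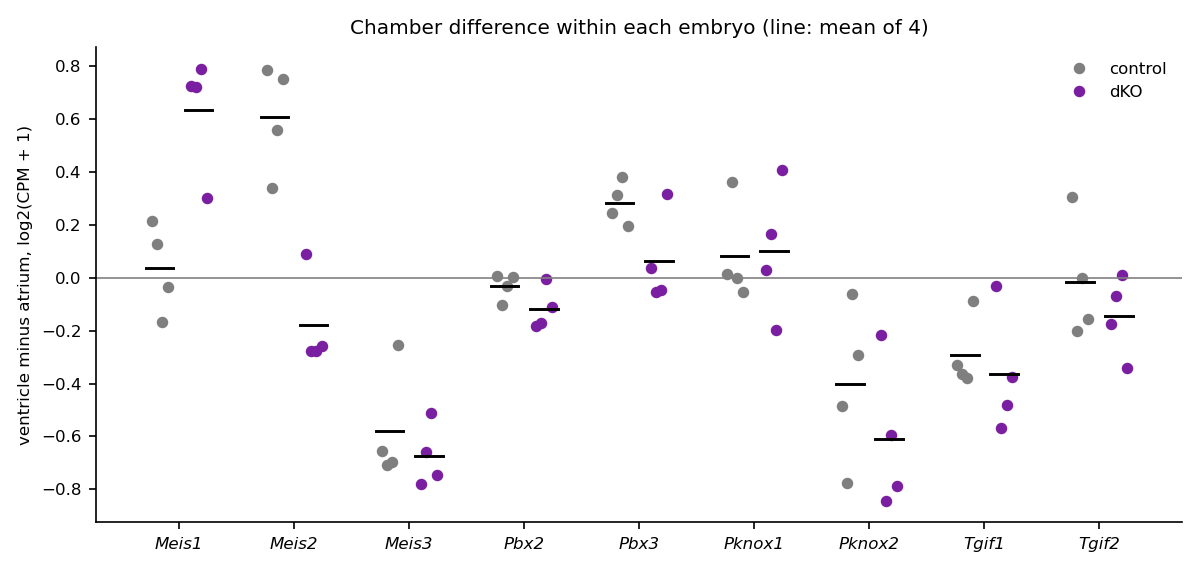
Ventricle minus atrium of the same embryo on the log2(CPM + 1) scale for the 9 genes, with 4 control embryos in grey, 4 dKO embryos in purple and the mean as a black line. Meis3, Pknox2 and Tgif1 lie below 0 in all 8 embryos, Meis2 lies above 0 in 4 of 4 controls, and Meis1 lies above 0 in 4 of 4 dKO embryos.

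Levels of different genes were compared per kilobase of exon, since longer transcripts give more reads. In control ventricles the order was Pbx2 (20.2 ± 0.878 CPM per kb), Tgif2 (9.79 ± 1.04), Pbx3 (5.35 ± 0.564), Meis1 (3.94 ± 0.376), Meis2 (3.26 ± 0.287), Pknox1 (2.75 ± 0.197), Tgif1 (1.89 ± 0.0702), Meis3 (1.74 ± 0.203) and Pknox2 (0.524 ± 0.151; SD, n = 4). The library ranges of Meis1 and Meis2, of Meis2 and Pknox1, and of Tgif1 and Meis3 overlapped there. Pbx2, Tgif2 and Pbx3 came first and Pknox2 last in all 4 groups, also when the longest transcript was used as the length. The places between them depended on the length. Per kilobase of all exons, Meis1 went from place 4 in control atria to place 6 in dKO atria, and Meis2 from place 5 in control ventricles to place 6 in dKO ventricles. Summed per kilobase, Meis1 plus Meis2 came to 5.94 ± 0.279 CPM per kb in control atria, 4.68 ± 0.434 in dKO atria, 7.20 ± 0.555 in control ventricles and 5.82 ± 0.360 in dKO ventricles. This sum is a description and follows from the Meis1 and Meis2 values.

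Among the other TALE genes, a list of 8 held the Iroquois genes Irx1 to Irx6, Mkx and Pbx4, and 7 passed the level filter, all but Pbx4. Irx4, a ventricular identity factor that also stands among the ventricular myocyte markers, was 73.8, 75.3, 85.5 and 90.4 CPM in control and 54.9, 56.7, 59.8 and 55.2 CPM in dKO ventricles. All dKO ventricles were below all controls (log2 -0.51, limma adjusted p = 0.00156). Irx2 fell from 23.7 ± 2.50 to 15.4 ± 1.97 CPM (SD, n = 4), a log2 difference of -0.59 (adjusted p = 0.0108). These were the 2 of 7 called in ventricles (2% of all genes were), and 0 of 7 were called in atria (7.47% of all genes were), where Irx2 and Irx4 were under 1 CPM in every library. The median of the 7 was -0.31 in ventricles and -0.10 in atria. With the 4 embryos of 1 title number alone, and in a fit of all 16 libraries, Irx2 and Irx4 were no longer called (highest adjusted p 0.233 and 0.0908). Between chambers, Irx1, Irx2, Irx3 and Irx4 were higher in ventricles in both genotypes, Irx6 was lower there in both, and Irx5 and Mkx were called lower in dKO embryos, beside 46.9% and 49.1% of all genes called.

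The TGF-beta list, with the Smad, co-repressor and retinoid receptor genes whose products work with or against Tgif proteins, had 17 genes tested. In atria 1 was higher and 2 were lower in dKO, beside 7.47% of all genes called, and in ventricles 0 were called, beside 2%. This list was shortened by 1 gene after its values were seen. Smad7, an inhibitor of the pathway, rose from 42.2 ± 5.003 to 56.0 ± 3.19 CPM (SD, n = 4), a log2 difference of 0.40 (limma adjusted p = 0.0117). Rxra, a retinoid receptor whose target genes Tgif1 is known to repress, fell from 54.4 ± 2.03 to 42.6 ± 4.25 CPM (log2 -0.35, adjusted p = 0.0135), and was not called when control embryo 2 was left out or when the fit held only the embryos of the title number with 2 of each genotype (highest adjusted p 0.0666). Smad3, a Smad that carries the signal to the nucleus, was 55.6, 54.9, 55.7 and 54.8 CPM in control and 49.2, 46.7, 47.8 and 44.7 CPM in dKO atria. All dKO atria were below all control atria (log2 -0.23, adjusted p = 0.0215). The Smad3 call held in 12 of 19 alternatives and was lost in the 4 embryos of 1 title number, without any 1 of the control embryos and without dKO embryo 2 or 3 (adjusted p 0.0505 to 0.0809). The list's median was -0.024 in atria and -0.035 in ventricles. The cell type markers given above differed between the same atria, and their part was not tested.

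Smad7 was also the 1 gene of this list whose dKO effect differed between chambers (ventricles minus atria -0.47, limma adjusted p = 0.0324). That call held in 11 of 19 alternatives and was lost, among others, with no replicate block and without control embryo 1 or 3 or dKO embryo 2, 3 or 4 (highest adjusted p 0.133).

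The remaining lists are short, and their counts stand beside 7.47% of all genes called in atria and 2% in ventricles. Of 16 cofactors and regulators of TALE proteins, 0 were called in either chamber, with medians of -0.019 in both. The most abundant, Ddb1, an adaptor of ubiquitin ligases, was 486 ± 4.75 CPM in control and 468 ± 20.2 CPM in dKO atria, and 498 ± 10.1 and 477 ± 15.3 CPM in ventricles (SD, n = 4). Of 5 cyclin-dependent kinase inhibitors tested, a family that restrains cell division, 0 were called between genotypes. Their median log2 difference was -0.077 in atria and -0.22 in ventricles, beside -0.0046 and -0.018 over all genes. Cdkn1c, the most abundant, was 467 ± 20.2 and 445 ± 56.4 CPM in control and dKO atria and 275 ± 23.7 and 228 ± 19.7 CPM in ventricles. The hypoxia-inducible factors, which Meis1 is known to activate in blood stem cells, numbered 2 and were not called. Hif1a was 187 ± 7.32 and 180 ± 10.6 CPM in control and dKO atria, and 290 ± 7.95 and 278 ± 17.5 CPM in ventricles.

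Hox genes, whose products bind DNA with Meis and Pbx, were few. Of 39 listed, 8 were in the table and 4 passed the level filter, and 0 of these were called between genotypes. Hoxb2, the most abundant, was 2.73 ± 0.758 CPM in control and 3.49 ± 1.31 CPM in dKO atria, and 1.06 ± 0.263 and 1.28 ± 0.375 CPM in ventricles (SD, n = 4). It was lower in ventricles in both genotypes (log2 -0.84 and -0.95, limma adjusted p = 0.00128 and 0.000389). Of the 4 Hox genes tested, 3 were called lower in control ventricles and 4 in dKO ventricles, beside 46.9% and 49.1% of all genes called.

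The genes whose level followed a member most closely over the 16 libraries were taken by Pearson correlation of log2(CPM + 1). The points share libraries, genotype and chamber, so the values are descriptions, and part of each r comes from the group means. Closest to Meis1 were Apobec2 (r = 0.94), Dsc2 (0.93), a desmosomal cadherin, and Pink1 (0.92), a mitochondrial kinase. Dsc2 had 42.2 CPM in control atria and 8.89 CPM in dKO atria, with 36.3 CPM in both ventricle groups. Closest to Meis2 were Psd (0.90), Togaram2 (0.85) and Gfod2 (0.82). With the group means taken out, r was 0.47 for Apobec2, 0.38 for Dsc2, 0.65 for Pink1, 0.79 for Psd, 0.54 for Togaram2 and 0.046 for Gfod2. Psd had 6.38 CPM in control ventricles and 3.71 to 3.99 CPM in the other 3 groups, and Togaram2 had 2.77 CPM in control ventricles against 0.246 to 0.673 CPM elsewhere. For the others the closest were Tmem9 for Meis3 (0.94), Letmd1 for Tgif1 (0.93), Adamts5 for Pknox2 (0.90), Gtf2f1 for Pbx3 (0.88), Pdp2 for Pbx2 (0.83), Rpl12 for Tgif2 (0.80) and Arih1 for Pknox1 (0.76). Without the group means these 7 had r of 0.78 to 0.85 in the same 16 libraries. Each closest gene was picked for its high r among the genes passing the filter. A high r thus follows from the pick and is no evidence of a link. Meis1 and Meis2 themselves had r = 0.21.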

How the data were processed

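RNA was measured in 16 libraries (60-base single reads from 20 ng total RNA, polyA, NEBNext Ultra, HiSeq2500, per the labels' protocols). Per the submitters' processing notes, cutadapt, RSEM 1.3.1 and GRCm38 were used. Not given in the sources used here: annotation release, normalization method, gene filter, strand setting. The deposited values are CPM per gene made by the authors. In every library all values were whole reads plus 0.5, times 1 step per library (within 0.001 of a whole number), so reads and depth were recovered. The CPM of a library summed to 753687 to 782986 in atria and 804313 to 841274 in ventricles, so counted reads alone did not set the step. Between control chambers, 3678 genes were called higher and 2865 lower in ventricles on these values, and 3069 and 3203 with edgeR. A floor of 3 reads is 0.110 to 0.312 CPM.

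From these values, limma 3.58.1 (R 4.3.3) with a trend was fitted on log2(CPM + 1), two-sided, over the 13950 genes averaging 1 CPM or more, which understates changes of low genes. Each dKO comparison used the 8 libraries of its chamber. Chamber comparisons used all 16 with the embryo as a block (consensus correlation 0.108), since both chambers come from 1 animal. The deviations of an embryo's 2 chambers correlated at 0.202 to 0.511 in all 8 embryos. Alternatives included edgeR 4.0.16 and DESeq2 1.42.0 on recovered reads. The limma p-values set each difference against the spread between libraries of the same group, which come from different embryos. The titles carry 3 numbers of unstated meaning: 605 (1 dKO), 627 (2 controls, 2 dKO) and 648 (2 controls, 1 dKO). The protocol speaks of a control and a dKO from each litter, which these numbers do not match. Fits were tested on simulated data. Of 16118 gene IDs, 16096 matched GENCODE M21.

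Members and lists were chosen with earlier results of these data known. Named genes are the 9 members, up to 3 called genes per list by smallest adjusted p (or the most abundant if none was called), and the 3 genes most correlated with Meis1 and Meis2 and 1 with each other member. Irx1, Irx3, Irx5, Irx6, Mkx and the cell type markers named fall outside this rule and were named after their values were seen. A gene of the TGF-beta list is not reported here.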

Additional observations from a re-analysis of the deposited data

Results flagged for a closer look

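A limma test of the dKO effect in ventricles minus that in atria called Meis1 (log2 0.60), Meis2 (-0.79) and Smad7 (-0.47). The chamber difference of the log2 Meis2 to Meis1 ratio also differed between genotypes (-1.44, two-sided exact permutation p = 0.0286, the smallest possible).

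Of 76 groups of 4 libraries examined for the 9 members, 9 list genes and the ratio, 4 held a library that stood apart from the other 3, and chance gives about 1 in 20. Pbx2 was highest in control ventricle 1 at 78.4 CPM, with the next at 72.5. Pknox1 was lowest in dKO atrium 4 at 14.3 CPM, with the next at 18.3. Pknox2 was lowest in control ventricle 2 at 3.08 CPM, with the next at 6.09. Smad3 was highest in control ventricle 3 at 48.2 CPM, with the next at 46.2.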

How the results depend on the processing

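Of 855 alternative values for the 9 members (45 comparisons, 13 called, 19 alternatives each), 798 kept direction and call, 16 lost a call, 4 gained one and 37 changed sign, 0 of these from a called value. Meis1 in atria (-0.69 to -0.55) and Meis2 in ventricles (-0.80 to -0.64) were called in all 19. With no replicate block, the only member call that changed was that of Pknox2 in control chambers (-0.40, adjusted p = 0.068). Genotypes were not paired, since the labels do not say whether a title number marks a litter.

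The count of genes called in ventricles was 469 with DESeq2 and 79 in the 4 embryos of the shared title number, against 279. For the difference of the dKO effect it was 226 in those 4 embryos and 238 to 470 with 1 embryo left out (241 without control 4, 238 without dKO 3), against 368. In those 4 embryos the ratio differences were 0.72 in atria, -0.75 in ventricles and -1.48 between chambers, with an exact permutation p of 0.333, the smallest that 2 against 2 allows. The cause of these changes was not tested, beyond fewer samples.

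The sign changes were all among values not called. With the title number as a covariate, the dKO difference was 0.068 (Meis3) and 0.0087 (Tgif2) in atria, and 0.018 (Meis3) and -0.014 (Pknox2) in ventricles. In the 4 embryos of the shared title number it was 0.064 for Pknox1 in atria, the chamber difference was 0.051 (Tgif2, control), -0.050 (Pbx3, dKO) and -0.015 (Pknox1, dKO), and the difference of effects was 0.098 (Meis3) and -0.21 (Pknox1). The control chamber difference of Meis1 was -0.0046 with edgeR and -0.0013 with DESeq2. Leaving out 1 embryo at a time gave, in atria, -0.13 to 0.080 (Meis3), -0.11 to 0.035 (Pknox1) and -0.081 to 0.036 (Tgif2). In ventricles it gave -0.082 to 0.027 (Meis1), -0.20 to 0.013 (Meis3), -0.078 to 0.042 (Pknox1) and -0.17 to 0.12 (Pknox2). For control chambers the ranges were -0.025 to 0.10 (Meis1), -0.013 to 0.13 (Pknox1) and -0.12 to 0.048 (Tgif2), and for dKO chambers -0.022 to 0.10 (Pbx3) and -0.0010 to 0.20 (Pknox1). For the difference of effects they were -0.15 to 0.013 (Meis3) and -0.082 to 0.12 (Pknox1). Depth limits Meis3 and Pknox2 most, with as few as 44 reads.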
